A study of Homo sapiens with 36 samples.

Results

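The 3 cell body arrays of MDA231, a human breast carcinoma line, were compared with the cell body arrays of 5 other cancer lines. They were chosen by their labels (line MDA231, cell body fraction) and are 3 of 36 arrays in all, set here against 15. In the study, cells of 6 lines were cultured for 24 hours on filters with small pores, and the parts above the filter (cell bodies, CB) and below it (pseudopods, PS) were scraped off and profiled apart on Affymetrix HG-U133 Plus 2.0 arrays, 3 per line and fraction, from 100 ng of RNA each. The comparison lines were U87 and U251 (glioblastoma), HT1080 (fibrosarcoma), DU145 (prostate carcinoma) and MDA435 (long used as a breast line, known for melanoma-like expression). No gene was altered and no drug was given. Per the labels, MDA231, DU145 and MDA435 were grown in RPMI-1640 and the other lines in DMEM, so line and medium cannot be told apart except against DU145 and MDA435. The labels do not say that the 3 arrays of a group came from separate cultures, so p-values may measure only technical spread. They also name each line without a clone, passage or source.

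MDA231 (MDA-MB-231) is widely used as a model of triple-negative breast cancer, which lacks the oestrogen and progesterone receptors and amplified ERBB2. The line is known for its spindle shape and its invasiveness. The RAS to ERK cascade, which growth factor receptors activate, turns on its own inhibitors, the sprouty proteins and the dual-specificity phosphatases, whose transcripts are therefore used as readouts of ERK output. An epithelial-to-mesenchymal shift replaces junction proteins such as E-cadherin with mesenchymal cadherins, vimentin and matrix proteins.

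Values below are linear intensity units as deposited, which can be compared between arrays for 1 gene but not between genes. Unless stated otherwise, 3 values in a row are MDA231 cell body replicates 1, 2 and 3. Differences are on the scale log2(intensity + 16), MDA231 minus the mean of the 5 other lines, and this scale understates differences of dim genes. A gene was called when its adjusted p fell under 0.05 (limma, 18 arrays, Benjamini-Hochberg over 14942 genes).

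The label was checked against receptor and mesenchymal genes. ESR1, the oestrogen receptor gene, stood at 26.0, 17 and 21.5, inside the range of the other lines (13.5 to 62.6). PGR, the progesterone receptor gene, was at 12.6, 19.2 and 9.7, and ERBB2 at 87.6, 122 and 108 with a median of 99.2 elsewhere. These 3 genes were near or within the levels of lines that are not breast lines, and none was called. They therefore cannot tell MDA231 from those lines. The mesenchymal genes VIM (2879, 2776 and 3065), CAV1 (2990, 2267 and 3292) and CD44 (2699, 2896 and 3164) were bright in all 3 arrays. VIM and CAV1 were as bright in other lines, so they do not set MDA231 apart, and some other mesenchymal genes below were dim.

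Replicate 2 stood apart from the other MDA231 cell body arrays. It lay more than 1 log2 unit above both of the others in 533 genes and below both in 334, whereas replicate 1 did so in 127 and 23 genes and replicate 3 in 18 and 43. Among the 15 other cell body arrays the highest such counts were 260 above, in MDA435 replicate 3, and 451 below, in MDA435 replicate 1. Replicates 1 and 3 correlated with each other at r = 0.982 and with replicate 2 at r = 0.934 and 0.948 (Pearson, across genes, which are not independent). Replicate 2 correlated best with MDA231 pseudopod replicate 3, at r = 0.983. Its correlation with MDA435 cell body replicate 3 was 0.917, against 0.8555 and 0.8675 for MDA231 replicates 1 and 3.

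CDH1, which encodes E-cadherin, the cadherin of epithelial junctions, was at 8.2, 1778 and 2.2. EPCAM, an epithelial adhesion molecule, was at 618, 3336 and 615. CXCL5, a neutrophil chemokine, was at 7.4, 2093 and 9.6, and ABCB1, a drug efflux pump, at 3.5, 1370 and 5.9. Replicate 2 alone was high in CDH1, CXCL5 and ABCB1, while EPCAM was clearly present in all 3 arrays. The other genes farthest above were TMEM200A, KCNV1 (a potassium channel subunit), SLC27A2 (a fatty acid transporter), the transcription factor genes TBX3 and ASCL2, SBSPON and REG1A. All of these 10 genes except REG1A were also high in MDA435 cell body replicates 2 and 3 against replicate 1, as with CDH1 at 32.8, 1044 and 2463 in MDA435 replicates 1, 2 and 3. REG1A, a secreted regenerating protein, was at 4.4, 667 and 12.7 in MDA231 and at most 19.5 in the 15 other arrays. All 10 were high in MDA231 pseudopod replicate 3 too (CDH1 1299, REG1A 484).

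**Figure D1:**
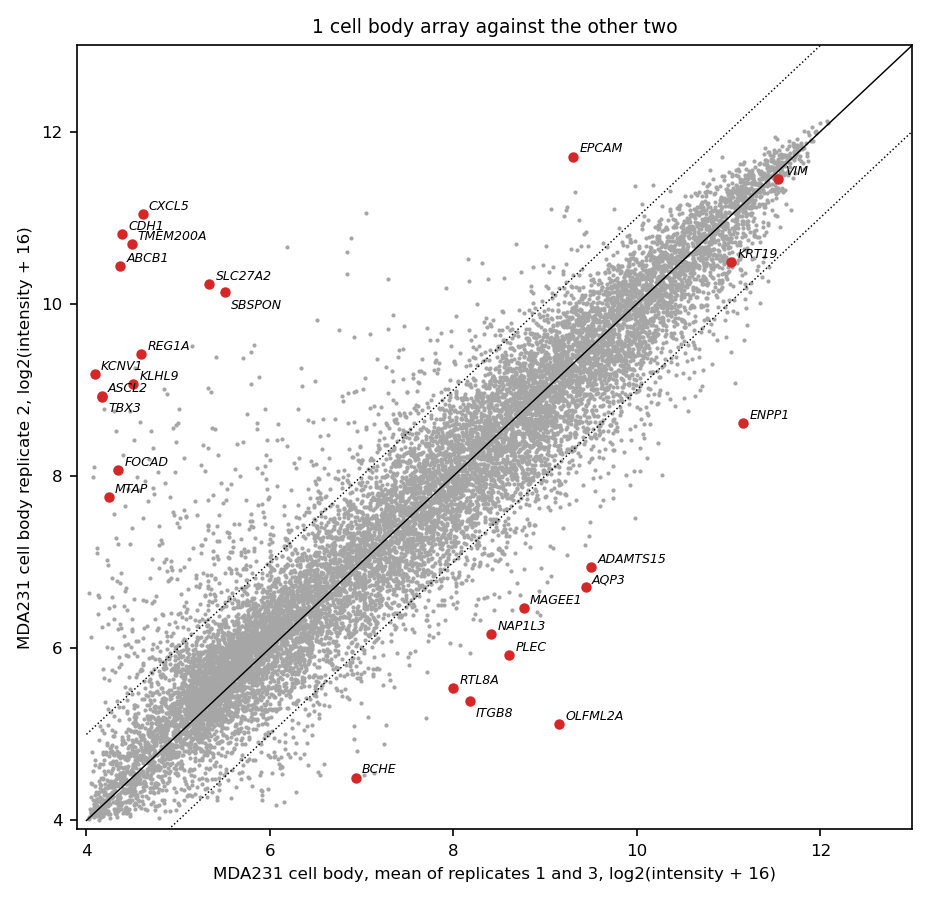
MDA231 cell body replicate 2 (vertical axis) against the mean of replicates 1 and 3 (horizontal axis), both as log2(intensity + 16), with 1 grey point per gene tested. The solid line marks equality and the dotted lines a difference of 1 in log2 value; red points are the 20 genes in which replicate 2 was farthest from both others and 6 further genes, with CDH1 and CXCL5 at the upper left and OLFML2A, BCHE and ENPP1 below the diagonal.

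Genes in which replicate 2 was low included ENPP1, an ectonucleotide enzyme (2346, 375 and 2195), AQP3, a water and glycerol channel (757, 88.4 and 612), and OLFML2A (817, 18.8 and 375). BCHE, ITGB8, PLEC, RTL8A, MAGEE1, NAP1L3 and ADAMTS15 completed the 10 farthest below. Replicate 2 also had the highest median intensity of the 3 (30.6 against 25.6 and 27.5). Replicate 2 and pseudopod replicate 3 thus shared a pattern that the other 4 MDA231 arrays lacked. Whether both arrays hold the cells that their labels name was not tested. The labels were kept, so every value over 3 MDA231 cell body arrays includes replicate 2, and the main results are also given without it.

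Of 14942 genes, 3463 were higher in MDA231 (23.2%) and 2971 lower (19.9%), together 43.1%. These are bulk samples, in which fewer cells expressing a gene and less of its RNA per cell cannot be told apart. A difference of at least 2-fold on the log2 scale was called for 855 genes upward (5.72%) and 697 downward (4.66%). Without replicate 2, 3231 were higher (21.6%) and 3059 lower (20.5%), of which 2837 and 2525 were in the first lists. The split rested on scaling: 53.8% of calls were higher as deposited and 39.1% with equal array medians (2380 higher, 3710 lower), where the median difference of all genes moved from 0.05 to -0.07. Against single lines, 2693 genes were higher and 2601 lower than in MDA435, 3122 and 2640 than in HT1080, 3039 and 2784 than in DU145, 4004 and 3032 than in U87, and 3990 and 3248 than in U251.

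The set that separated MDA231 from every line was smaller. Against each of the 5 lines, 434 genes were called higher (2.9%) and 292 lower (1.95%), and 572 and 407 without replicate 2, with 395 and 246 shared. All 3 MDA231 arrays lay above the 15 others in 568 genes (3.8%) and below them in 346 (2.32%). With each line as 1 unit, a test of whether MDA231 lies outside the spread between lines, 11 genes were higher and 2 lower. These 13 were chosen by their values: ADGRF5, GPAT2, ESAM, the endoderm factor gene FOXA2 (349, 154 and 328, at most 7.4 elsewhere), LINC00261, SPANXB1, TSPYL5, RCSD1, COX7B2 and the cystatin genes CST1 and CST2 upward, and CD109 and GJC1 downward.

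Of the genes whose arrays did not overlap, 14 with the largest differences upward are described first. ADGRF5, an adhesion G protein-coupled receptor known from lung and endothelium, stood at 2233, 941 and 1793 against 6.6, 11 and 38.7 (lowest, median and highest of the 15 others). IGFBP1, which binds insulin-like growth factors, was at 2311, 971 and 2326, against a median of 4.3 and a highest value of 527. GPAT2, a glycerol-phosphate acyltransferase best known from testis, was at 737, 280 and 690 and at most 1.5 elsewhere. ADGRF5 and GPAT2 were near 0 or dim in every other line, whereas U87 had IGFBP1 at 408. The differences were 5.70 ± 0.17 (SE; adjusted p = 3.42e-13), 5.56 ± 0.20 (adjusted p = 3.38e-12) and 5.00 ± 0.18 (adjusted p = 3.34e-12), and all 3 grew without replicate 2 (6.06, 5.98 and 5.44).

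ESAM, an endothelial junction adhesion molecule, was at 682, 293 and 458 and at most 5.8 in the 15 others (4.67 ± 0.16, adjusted p = 1.43e-12). THBD, the thrombin receptor thrombomodulin, was at 1521, 546 and 1493 with a median of 21.9 elsewhere (4.35 ± 0.23). Both were lowest in replicate 2, yet each array was above all others. Of 2 epithelial transcription factor genes, EHF was at 2198, 2060 and 2312 (median elsewhere 39.1, highest 510) and FOXQ1 at 1828, 1751 and 1775 (median elsewhere 28.2, highest 991). Here replicate 2 was level with its group. Their differences were 4.97 ± 0.53 (adjusted p = 1.63e-06) and 4.95 ± 0.49 (adjusted p = 6.40e-07), and the highest other value of each was in MDA435 replicate 3.

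MMP1, the interstitial collagenase, stood at 3055, 3309 and 3392, with a median of 230 and a highest value of 545 elsewhere (4.54 ± 0.21, adjusted p = 7.36e-11). IGFBP4, a further binding protein of insulin-like growth factors, was at 2624, 748 and 2002 (4.57 ± 0.34). U87 had a mean of 457 for IGFBP4 and DU145 one of 324, while U251, HT1080 and MDA435 were below 10. SHISA2, a regulator of WNT and FGF receptors (4.71), PLAC8 (4.55), VAMP8, a SNARE protein of endosomes and secretion (4.36), ARHGDIB, a regulator of small GTPases best known from blood cells (4.33), and C4BPB, a chain of the complement inhibitor C4b-binding protein (4.10), made up the rest. VAMP8 was not called against DU145, whose mean was 879 against 1705, 1232 and 1657 here.

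**Figure D2:**
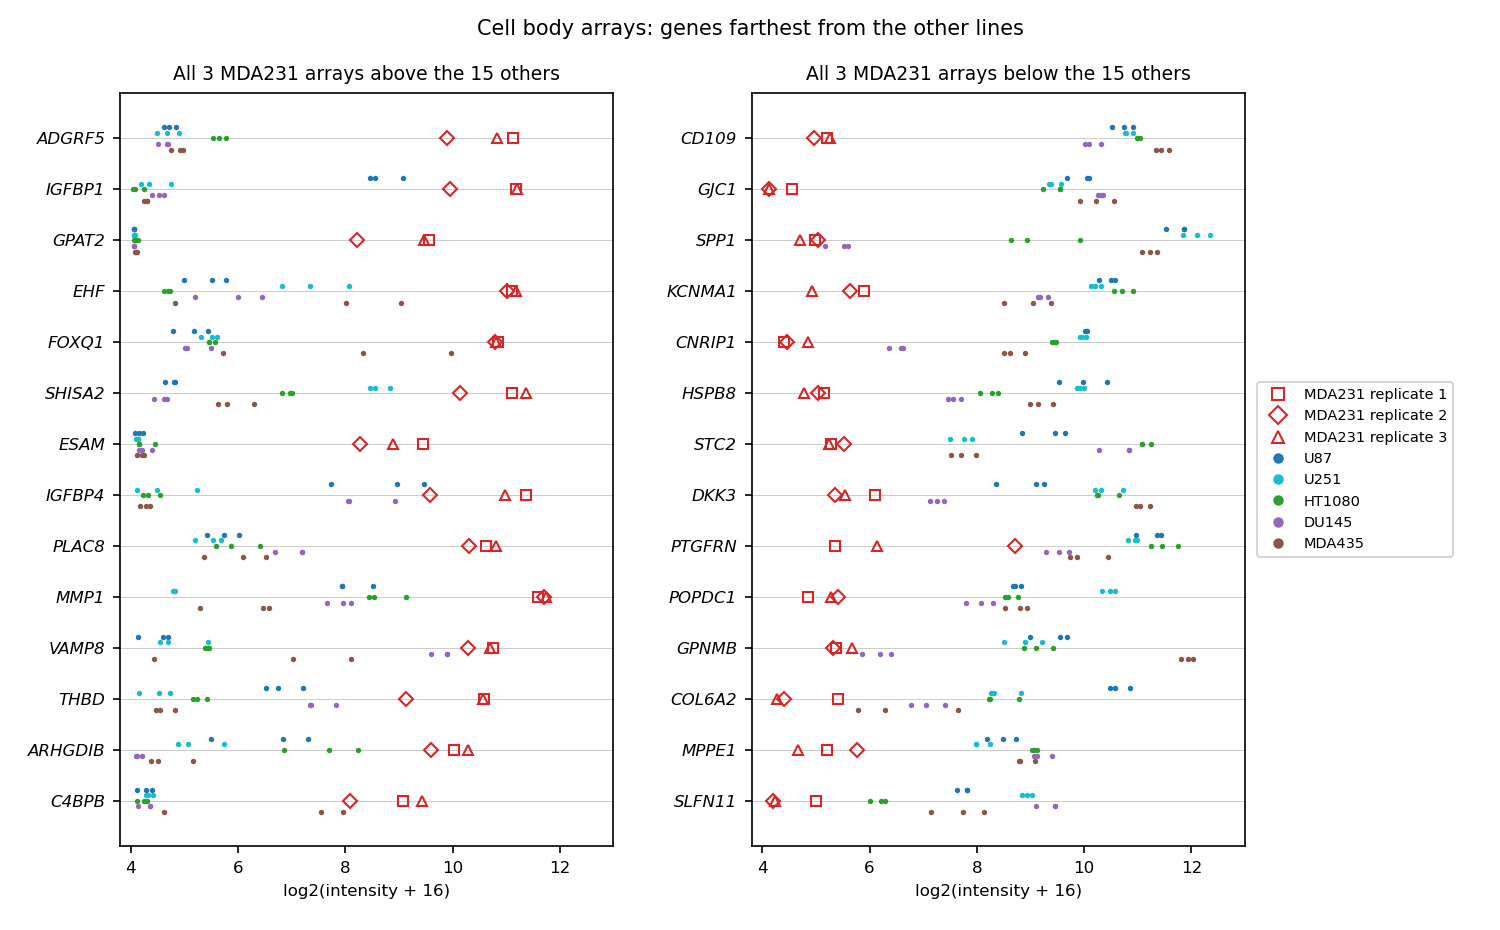
The 14 genes with the largest differences upward (left) and downward (right) among called genes whose 3 MDA231 arrays lie outside the 15 others; the horizontal axis is log2(intensity + 16) and each point is 1 cell body array, coloured by line. Open red symbols are MDA231 replicates 1 (square), 2 (diamond) and 3 (triangle); replicate 2 lies to the left of the other two in ADGRF5, IGFBP1 and ESAM and well to their right in PTGFRN.

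The 14 largest differences downward, by the same rule, began with CD109 and GJC1. CD109, a membrane-anchored co-receptor that restrains TGF-beta signalling, was at 20.8, 15.2 and 22.5 against 1016, 1909 and 3071 (lowest, median, highest). GJC1, a gap junction connexin, was at 7.5, 1.5 and 1.4 against 583, 959 and 1499. Both genes were bright in all 15 arrays of the other lines and dim in the 3 MDA231 arrays. The differences were -5.68 ± 0.11 (adjusted p = 7.11e-16) and -5.60 ± 0.14 (adjusted p = 2.50e-14), and the other probe sets of GJC1 gave -1.96 to -2.92.

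SPP1, which encodes the secreted phosphoprotein osteopontin, was at 15.5, 17 and 10, while the other lines had a median of 2399. DU145 was nearly as dim (27.4), and the gene was not called lower than in each line (-5.03 ± 0.19 against the mean). KCNMA1, a calcium-activated potassium channel (-4.43), CNRIP1 (-4.36), HSPB8, a small heat shock protein (-3.99), STC2, a secreted glycoprotein (-3.96), DKK3, a secreted WNT pathway modulator (-3.94), POPDC1 (-3.75), GPNMB, a glycoprotein of melanocytes and osteoclasts (-3.64), COL6A2, a collagen VI chain (-3.54), MPPE1 (-3.53, a probe set marked as shared between transcripts) and SLFN11, which blocks replication under DNA damage (-3.50), were dim in all 3 arrays. PTGFRN, a tetraspanin partner, was at 24.9, 405 and 54.3. Its replicate 2 was far above the other two and still below the 613 of the lowest other array (-3.90 ± 0.41, and -4.89 without replicate 2).

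The list of EGFR ligands and RAS to ERK output genes was higher in MDA231 more often than genes at large. Of 31 members tested, 21 were higher and 1 was lower, against 23.2% and 19.9% of all genes, with a median difference of 0.77 beside 0.05 for all genes. Without replicate 2 the counts were 18 and 1 (median 0.74), and against DU145 and MDA435 alone 21 and 0. The list was drawn up with earlier results of these data known and was not tested as a set. The counts of the lists below are likewise to be read against 23.2% higher and 19.9% lower among all genes. For counts without replicate 2 the shares of all genes were 21.6% and 20.5%. Against DU145 and MDA435 alone fewer of the 14942 genes were called, 2188 higher and 2101 lower. List counts against those lines are to be read beside these totals.

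Feedback inhibitors led this list. SPRY1, a sprouty inhibitor of receptor signalling, was at 989, 376 and 742 against 42.8, 131 and 187. All 3 arrays were above the 15 others, replicate 2 least (2.49 ± 0.20, adjusted p = 6.31e-08; 2.87 without it). DUSP6, the phosphatase that inactivates ERK, was at 2722, 2213 and 2583, with a median of 1058 elsewhere. The mean was 2075 in U87 and 14.9 in HT1080, and the difference was 2.14 ± 0.14 (1.02 against DU145 and MDA435). DUSP4, a nuclear phosphatase of the same family, was at 2096, 985 and 1859 (1.78 ± 0.23), and its replicate 2 lay inside the range of the others, which reached 1345.

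Factors and receptors of the cascade followed. ETV1, an ETS transcription factor downstream of ERK, was at 1535, 416 and 1449 (1.81 ± 0.29, and 2.41 without replicate 2), with U87 higher still at a mean of 1662. FOSL1, the AP-1 subunit FRA1, was at 1210, 748 and 1089 and at most 637 elsewhere (1.78 ± 0.16). MYC was at 779, 836 and 859, with 702 as the highest other value (1.51 ± 0.14). EGFR, the receptor for epidermal growth factor, was at 1406, 612 and 1091, against 79.3, 371 and 1147 (1.48 ± 0.22, adjusted p = 3.89e-05). FOSL1 and MYC were thus higher in all 3 arrays than in the 15 others, while EGFR overlapped with DU145, whose mean was 958. PHLDA1 was the 1 member lower (-0.56 ± 0.12; 0.04 against DU145 and MDA435, adjusted p = 0.857), and the ligand genes TGFA (0.36) and BTC (0.18), CCND1 (0.33) and MET (0.04) were not called.

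**Figure D3:**
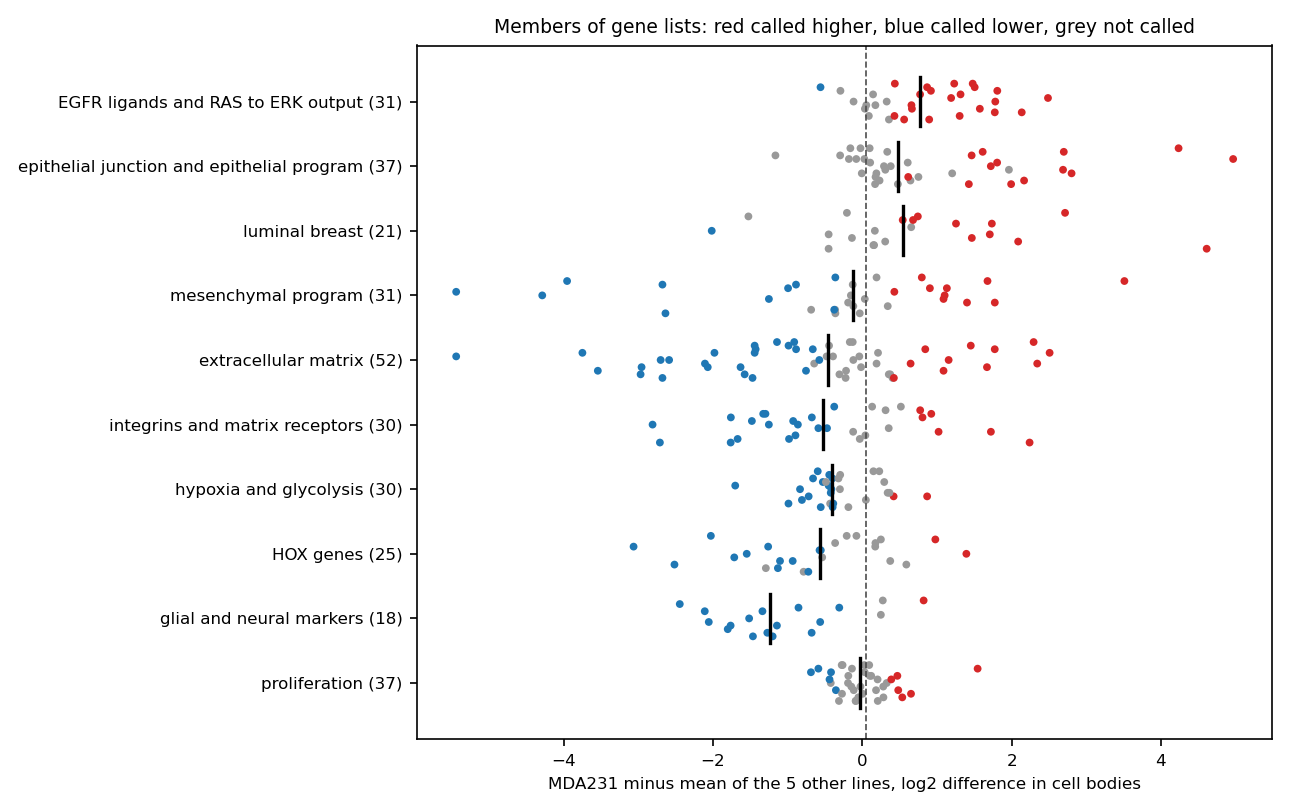
Differences of single genes in 10 gene lists, MDA231 minus the mean of the other lines in cell bodies, on the log2(intensity + 16) scale; each point is 1 gene, the black bar the median of the list, the number in brackets its tested members and the dashed line the median of all genes (0.05). Members of the RAS to ERK list lie mostly to the right, with a median of 0.77, and those of the extracellular matrix, HOX and glial lists mostly to the left, with medians of -0.46, -0.57 and -1.24.

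Epithelial genes were divided. Of 37 junction and epithelial program genes, 13 were higher and 0 lower (limma; also 0 lower at an unadjusted p under 0.05), with a median of 0.48. Without replicate 2 the counts were 10 and 1 and the median turned to -0.07; without replicate 2 and MDA435 replicates 2 and 3, an alternative chosen after seeing the data, they were 15 and 2. Against DU145 and MDA435 alone, 3 were higher and 3 lower. The summed intensity of the list was 11173, 20358 and 9455 in MDA231, 13677 to 23833 in DU145, 2360 to 18643 in MDA435, and at most 3686 in U87, U251 and HT1080.

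SPINT2, an inhibitor of matriptase, was at 1950, 1454 and 1611, against a median of 4.1 elsewhere and a mean of 2275 in DU145 (4.24 ± 0.48, adjusted p = 2.99e-06). KRT19, a keratin of simple epithelia, was at 2382, 1419 and 1799, with 2658 in DU145, 245 in MDA435 and at most 10.9 as the mean of each other line (4.61 ± 0.59). The MDA435 mean covered unlike arrays, with KRT19 at 0.5, 204 and 530 in MDA435 replicates 1, 2 and 3. SPINT2 was at 51.2, 501 and 1184 in the same arrays. Comparisons of these genes with DU145 and MDA435 alone include this split. DSP, the desmosomal plaque protein desmoplakin, was at 1525, 961 and 1401 (2.70 ± 0.44), and CLDN7, a tight junction claudin, at 444, 453 and 222 (2.69 ± 0.60). These 4 genes were present in all 3 MDA231 arrays, replicate 2 not being highest in SPINT2, KRT19 or DSP. Against DU145 and MDA435 alone DSP remained called (1.94, adjusted p = 0.045), and SPINT2 (0.91, adjusted p = 0.371), KRT19 (1.67, adjusted p = 0.18) and CLDN7 (0.73, adjusted p = 0.566) did not. That DSP call rested on MDA435 (11.9, 122 and 264), since DU145 (1677, 1365 and 560) overlapped with MDA231.

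The CDH1 difference was 0.10 ± 1.06 (adjusted p = 0.947), a mean of 1 bright and 2 dim arrays, and -2.04 without replicate 2 (adjusted p = 0.0571). DU145 had a mean of 1705 for CDH1 and MDA435 of 1180, with U87, U251 and HT1080 at 5.13 or below. The sign therefore turned with 1 array. EPCAM was higher by 2.80 ± 0.65 (adjusted p = 0.00236), and by 2.00 without replicate 2 (adjusted p = 0.0296), but by -0.50 against DU145 and MDA435 alone (adjusted p = 0.732). MDA435 cell body replicates 1, 2 and 3 had EPCAM at 142, 2058 and 3737. RAB25, a small GTPase of epithelial recycling, was at 11.5, 500 and 14, and MAL2, an apical transport protein, at 201, 2119 and 64.3. Neither was called, and replicate 2 was the high array in both.

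**Figure D4:**
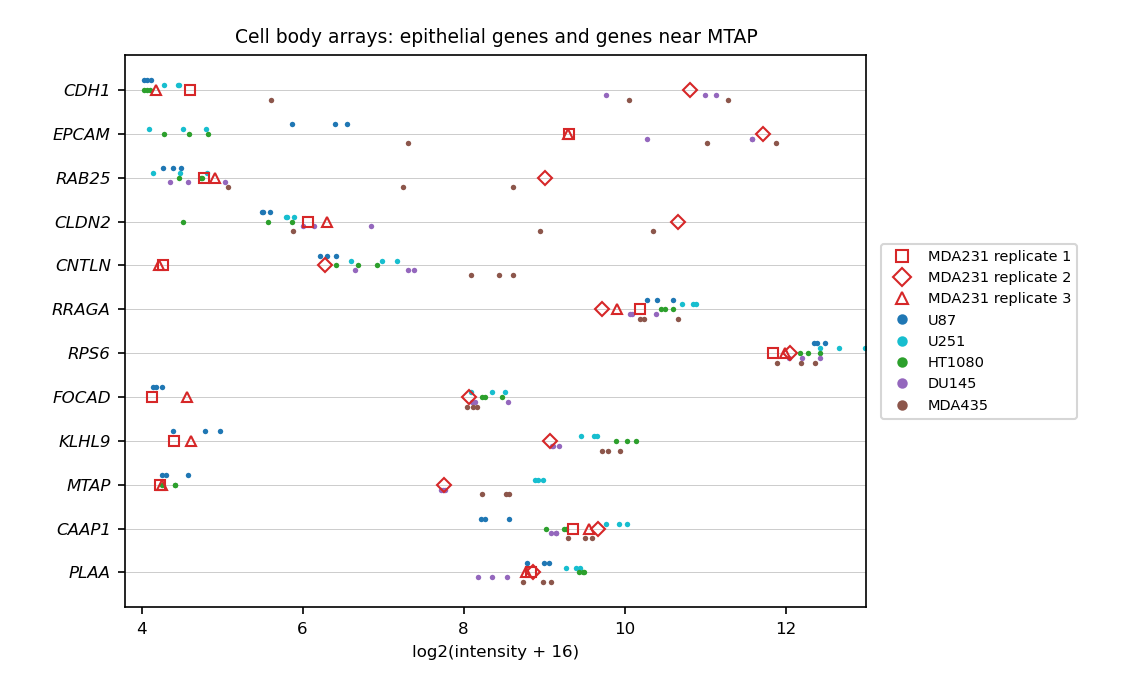
Intensity of 4 epithelial genes and of MTAP and 7 of its neighbours on the same chromosome in the 18 cell body arrays, as log2(intensity + 16); open red symbols are MDA231 replicates 1, 2 and 3. The diamond, replicate 2, lies far to the right of the square and the triangle in CDH1, RAB25, CLDN2, CNTLN, FOCAD, KLHL9 and MTAP, and beside them in RPS6 and PLAA.

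Markers of the breast lineages gave a mixed picture as well. Of 21 luminal genes, 10 were higher and 1 lower (7 and 4 without replicate 2, median 0.54 and 0.46). AGR2, a disulfide isomerase of secretory epithelia, was at 454, 747 and 167 (2.72 ± 0.61; 2.23 with adjusted p = 0.0898 against DU145 and MDA435). SPDEF, an ETS factor of luminal and secretory cells, was at 410, 80.1 and 230 (2.09 ± 0.34, a shared probe set), its replicate 2 just below the highest other value of 81.8. GATA3, the luminal factor gene, was at 259, 193 and 319 and at most 207 elsewhere (1.26 ± 0.15). GREB1, an oestrogen receptor target, was lower than the mean, at 7.3, 11.4 and 7.2 (-2.02 ± 0.14), with U251 dimmer still (0.4 to 6.9). KRT18, the simple keratin, was higher by 1.74 ± 0.25, and that call ended without U87 (0.45, adjusted p = 0.207) and against DU145 and MDA435 (0.17, adjusted p = 0.751).

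Of 12 basal genes, 5 were higher and 1 lower (6 and 2 without replicate 2). ITGB4, the hemidesmosome integrin chain, was at 673, 146 and 137, with U251 at a mean of 432 (2.24 ± 0.41). LAMB3, a chain of laminin-332, was at 2464, 1148 and 2188 (1.45 ± 0.18), beside 2534 in DU145 and 2289 in HT1080. ITGA6, the partner of ITGB4, was higher by 0.92 ± 0.13, which fell to 0.23 without U87 (adjusted p = 0.196) and to 0.13 against DU145 and MDA435 (adjusted p = 0.615). The 3 genes thus overlapped with at least 1 other line.

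Of 31 genes of the mesenchymal program, 10 were higher and 10 lower (11 and 10 without replicate 2), and 12 and 6 against DU145 and MDA435 alone. SPARC, a collagen-binding matricellular protein, was at 6.4, 29.2 and 17, while 4 lines had means from 2616 to 4513 and DU145 17 (-5.44 ± 0.24, adjusted p = 3.50e-11). CDH2, which encodes N-cadherin, was at 7.3, 6.5 and 7.1, against a median of 761 and a DU145 mean of 2.83 (-4.29 ± 0.13, adjusted p = 3.42e-13). UCHL1, a neuronal deubiquitinase, was at 24.1, 19.0 and 25.9 (-3.95 ± 0.11), with HT1080 (31.9) and MDA435 (23.8) as dim. So SPARC and CDH2 were dim in both carcinoma lines, MDA231 and DU145, and bright in the other 4. The transcription factor genes of this program were divided too. TWIST1 was at 0.9, 9.3 and 2.7 with a median of 147 elsewhere (-2.64 ± 0.16). ZEB1, a repressor of CDH1, was at 1360, 709 and 1396 with a median of 264 elsewhere (1.40 ± 0.19). U87 (853 to 1162) and HT1080 (984 to 1329) overlapped with MDA231 in ZEB1, and replicate 2 lay below every array of both lines.

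CDH11, a mesenchymal cadherin, was at 2153, 585 and 1297, with a median of 18.9 elsewhere and means of 747 in HT1080 and 532 in U251 (3.51 ± 0.26; a shared probe set, the others of the gene giving 1.20 to 2.01). AXL, a receptor tyrosine kinase of mesenchymal tumour cells, was at 2486, 1658 and 2373 (0.80 ± 0.15), and NT5E, the ectonucleotidase CD73, at 2100, 1510 and 2320 (1.68 ± 0.25; 0.81 against DU145 and MDA435, adjusted p = 0.0746). VIM was lower by 0.36 ± 0.13 (adjusted p = 0.031), a call that ended without replicate 2 (adjusted p = 0.0976) and with quantile normalization (-0.03, adjusted p = 0.758). CAV1, the caveolar coat protein, differed by -0.19 ± 0.13 (adjusted p = 0.243), and its sign turned with quantile normalization (0.15).

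Extracellular matrix genes were lower more often than higher. Of 52, 24 were lower and 11 higher, median -0.46; the counts were 24 and 12 without replicate 2 (median -0.32), but 13 lower and 21 higher against DU145 and MDA435 alone. VCAN, the large proteoglycan versican, was at 24.8, 20 and 22.6, against a median of 1052 (-3.75 ± 0.21, a shared probe set; DU145 14.6). NID1, a basement membrane linker, was at 0.9, 0.9 and 0.6, with U87 equally dim at 0.5 (-2.97 ± 0.10). COL1A2, a collagen I chain, was lower by 2.96 on the log2 scale (difference -2.96 ± 0.19), and against DU145 and MDA435 the difference was -0.46 (adjusted p = 0.142). Members on the other side were LOXL4, a collagen cross-linking oxidase (1232, 185 and 467; 2.51 ± 0.31), COL13A1, a transmembrane collagen (2772, 1772 and 2557; 2.34 ± 0.24), and the matricellular gene THBS1 (1354, 1123 and 1946; 2.30 ± 0.28). LOXL4 was lowest in replicate 2, and its range overlapped with the others, which reached 248.

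Of 30 integrins and matrix receptors, 17 were lower and 6 higher, median -0.53, and 12 and 6 without replicate 2, but 9 and 9 against DU145 and MDA435 alone. DDR2, a collagen receptor kinase, was at 25.3, 27.0 and 31.9 against a median of 357 (-2.81 ± 0.16), with DU145 at 22.9. ITGA4, the alpha4 integrin chain, was at 8.6, 2.1 and 5.5 (-2.71 ± 0.14), as dim as in DU145 (7.57) and far below MDA435 (740). GPC1, a cell surface heparan sulfate proteoglycan, was at 132, 126 and 74.1 and at least 211 elsewhere (-1.76 ± 0.19, lower than in each line).

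Among 47 invasion proteases and inhibitors, 13 were higher and 14 lower (14 and 14 without replicate 2), median 0.05. Beside MMP1, TIMP3, an inhibitor of metalloproteases, was high at 2283, 526 and 1996, with a mean of 676 in MDA435 and at most 284 in each other line (3.62 ± 0.32; 4.29 without replicate 2). ADAMTS1, a protease that cuts versican, was at 841, 319 and 1673, with U87 at 992 (2.78 ± 0.29). ADAM8 was at 649, 160 and 292 (2.51 ± 0.28), F3, tissue factor, at 2056, 1164 and 2151 (1.92 ± 0.34). Replicate 2 was the lowest of the 3 in each of these 4 genes. Lower were ADAM12, at 12.7, 18.8 and 13.4 with U87 and U251 at 1640 and 2235 (-3.09 ± 0.21), MMP16 (-2.22 ± 0.23) and the gelatinase gene MMP2 (22.1, 63.3 and 38.6; -2.54 ± 0.18, and 0.03 against DU145 and MDA435, adjusted p = 0.94).

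A list of 26 genes reported from MDA-MB-231 sublines that colonise lung or bone had 11 members higher and 7 lower (11 and 8 without replicate 2). CXCR4, a chemokine receptor used in metastasis to bone and lung, was at 861, 345 and 823 against 0.3, 34.9 and 331 (3.46 ± 0.24, adjusted p = 1.14e-08). All 3 arrays were above the 15 others, replicate 2 by a small margin. MMP1 and CXCR4 were therefore high and SPARC and SPP1, members of the same list, dim. Of 23 S100 proteins and annexins, 8 were higher and 6 lower (10 and 3 without replicate 2). S100A4, a calcium-binding protein linked to motility, was at 1799, 433 and 1014 and at most 311 elsewhere (2.89 ± 0.33, higher than in each line). ANXA3 was at 1926, 2182 and 1919 (2.41 ± 0.32; 0.78 against DU145 and MDA435, adjusted p = 0.234), beside 2389 in DU145. S100P, at 109, 595 and 36.7, was called (2.30 ± 0.57) but not without replicate 2 (1.33, adjusted p = 0.0524).

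Of 41 inflammatory genes, 11 were higher and 11 lower (26.8% each, beside 23.2% and 19.9% of all genes; 8 and 13 without replicate 2; 11 and 8 against DU145 and MDA435). CXCL1, a neutrophil chemokine and NF-kB target, was at 201, 1145 and 256, with DU145 at 692, U87 at 106 and the other lines at 47.0 or below (2.44 ± 0.36, adjusted p = 4.10e-05; 1.69 without replicate 2; 0.97 against DU145 and MDA435, adjusted p = 0.137). Replicate 2 was the highest of all 18 arrays. CSF1, the macrophage growth factor gene, was at 1258, 561 and 682 (1.39 ± 0.24), and PTGS2, the inducible cyclooxygenase gene, was higher by 1.23. CCL2, a monocyte chemokine, was at 1.3, 1.6 and 2.0, with U251 at 2252 (-2.28 ± 0.22), and C3, a complement component, at 12.1, 217 and 8.9 (-1.52 ± 0.48; -2.57 without replicate 2). The C3 call ended without replicate 1 (-1.04, adjusted p = 0.146) or 3 (-0.96, adjusted p = 0.172), without U87 or DU145, and against DU145 and MDA435. IL6 (139, 240 and 138; -0.57 ± 0.37) and CXCL8 (937, 2653 and 1400; 0.59 ± 0.35) were not called, and their signs turned against DU145 and MDA435 (IL6, 0.52) and without MDA435 (CXCL8, -0.03).

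The promoter of CXCL1 is shown because it is the called cytokine gene with the largest difference upward, taken as the 250 bases before its start in RefSeq (GRCh38.p14, chr4:73869143-73869392, plus strand). Capitals mark the 1 match to the NF-kB motif GGANTTTCC, searched on both strands, whose first base lies 78 bases before the start.
CXCL1: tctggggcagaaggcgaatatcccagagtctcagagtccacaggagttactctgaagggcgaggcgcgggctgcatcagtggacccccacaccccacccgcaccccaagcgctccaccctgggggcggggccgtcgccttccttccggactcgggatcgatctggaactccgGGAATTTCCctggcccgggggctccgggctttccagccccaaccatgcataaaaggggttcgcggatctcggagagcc
The window held 0 matches to the AP-1 motif TGANTCA. The same windows of PTGS2 and RELA, the next called members in the promoter table, held 0 matches to either motif and are not printed. Of 35116 promoters in that table, 1.45% held the NF-kB motif and 6.57% the AP-1 motif, so a match is a description of these letters and no evidence of binding.

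Of 27 antigen presentation genes, 11 were higher and 6 lower (14 and 4 without replicate 2, where the median was 0.45 in place of 0.10), and 4 and 4 against DU145 and MDA435 alone. CD74, the invariant chain of MHC class II, was at 1260, 372 and 900 (2.07 ± 0.24), and HLA-DRA, a class II chain, at 1860, 472 and 1327 (2.06 ± 0.29). HLA-DRB1 was at 2969, 1210 and 2547 (1.53 ± 0.21, a shared probe set; 0.59 without U251, adjusted p = 0.0548). MDA435 was higher in CD74 and HLA-DRA (means of 2040 and 3263). In HLA-DRB1, MDA435 (3151 to 3918) and U87 (3160 to 4544) were both above all 3 MDA231 arrays. None of the 3 genes was called against DU145 and MDA435 alone (adjusted p = 0.515 for CD74, 0.215 for HLA-DRA and 0.433 for HLA-DRB1). HLA-DQA1, by contrast, was at 13.1, 7.4 and 17.7 (-1.86 ± 0.19), beside 2069 in MDA435. CD274, which encodes the checkpoint ligand PD-L1, was at 524, 401 and 665 (1.16 ± 0.15).

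Interferon response genes were higher in 12 of 36 cases and lower in 4 (13 and 4 without replicate 2; 8 and 6 against DU145 and MDA435). BST2, the tether of budding viruses, was at 1304, 242 and 1143, with U251 at 2994, MDA435 at 748 and the other lines at 19.6 or below (2.38 ± 0.42). IFIT2 was at 1013, 431 and 1014 (2.08 ± 0.31) and IFIT3 at 1815, 1213 and 2038 (1.92 ± 0.32; 1.14 against DU145 and MDA435, adjusted p = 0.0867), both RNA-binding interferon-induced proteins also bright in DU145 (776 and 1487). IFITM1, a membrane protein that blocks virus entry, was at 1073, 838 and 1072 (1.80 ± 0.34). MX1 (-0.76), OAS1 (-0.47) and ISG15 (0.01), classical members of the same response, were not called.

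Among 24 tumour suppressors and cell cycle inhibitors, 6 were higher and 5 lower (5 and 5 without replicate 2). NF2, which encodes merlin, was at 55.8, 215 and 38.2 against 208, 264 and 877. Replicates 1 and 3 were below the 15 other arrays and replicate 2 inside their range (-1.85 ± 0.26; -2.48 without replicate 2). MTAP, a methionine salvage enzyme, was at 2.8, 200 and 3.1, with U87 and HT1080 at 4.87 and 4.63 and the other 3 lines at 198 or more. MTAP was thus dim in replicates 1 and 3 and at the DU145 level in replicate 2 (-1.36 ± 0.46, adjusted p = 0.0234; -2.53 without replicate 2). That call ended without replicate 1 (-0.77, adjusted p = 0.233), without replicate 3 (-0.78, adjusted p = 0.235), and without U251, DU145 or MDA435. CDKN2A, the cell cycle inhibitor gene beside MTAP, was at 42.6, 23.4 and 44.9, near U87, U251 and HT1080 and far below DU145 (1354); its -1.20 ± 0.20 became -0.32 without DU145 (adjusted p = 0.236). CDKN1C, an imprinted inhibitor of cyclin-dependent kinases, was at 342, 273 and 198 and at most 167 elsewhere (2.16 ± 0.23).

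Of 37 proliferation genes, 6 were higher and 5 lower (16.2% and 13.5%, beside 23.2% and 19.9% of all genes; 4 and 9 without replicate 2). CCND2 was at 113, 82.6 and 114 (1.55 ± 0.13). CCNE1 (72.7, 182 and 147; -0.69 ± 0.21) was not called without replicate 1 (-0.35, adjusted p = 0.186), nor was MCM5, a replication helicase subunit (488, 882 and 496; -0.59 ± 0.15), without replicate 1 (-0.44, adjusted p = 0.0526) or replicate 3 (-0.46, adjusted p = 0.0536). Of 30 hypoxia and glycolysis genes, 16 were lower and 2 higher, median -0.41 (12 and 4 without replicate 2), but 5 lower and 6 higher against DU145 and MDA435. PFKFB4, a regulator of glycolytic flux, was at 157, 154 and 122 and at least 264 elsewhere (-1.70 ± 0.21, lower than in each line). The collagen prolyl hydroxylase genes P4HA1 (1257, 1458 and 723; -0.99 ± 0.19) and P4HA2 (-0.83 ± 0.18; -0.17 against DU145 and MDA435, adjusted p = 0.551) were lower, and ADM, the vasodilator adrenomedullin, was higher by 0.87 ± 0.22, but by 0.53 without replicate 3 (adjusted p = 0.0733) and by -0.16 without HT1080 (adjusted p = 0.611).

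In lipid synthesis, 5 of 25 genes were higher and 8 lower (3 and 8 without replicate 2), with SQLE, squalene epoxidase, at 534, 706 and 434 and a median of 1439 elsewhere (-1.34 ± 0.13). FASN, fatty acid synthase, was higher (0.95 ± 0.26) and not called without replicate 2 (0.76, adjusted p = 0.0556). GAPDH (2694, 2967 and 3081; -0.40 ± 0.16, adjusted p = 0.0487; -0.41 without replicate 2, adjusted p = 0.0898) and ACTB (3419, 3964 and 4128; -0.26 ± 0.13, adjusted p = 0.102) are often used as references, and the GAPDH call ended in most fits without 1 array. With quantile normalization the ACTB difference was 0.08 and the GAPDH difference -0.07.

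Of 51 receptor tyrosine kinases, ligands and binding proteins, 19 were higher and 15 lower (21 and 16 without replicate 2). ROR1, a WNT5A receptor of the fetal kind, was at 861, 388 and 825 and at most 351 elsewhere (2.88 ± 0.34, higher than in each line). NRP2, a semaphorin and VEGF co-receptor, was at 10.6, 20.7 and 4.4, with only DU145 as dim (3.17; -3.31 ± 0.20). Of 18 keratins and other intermediate filaments, 5 were higher and 8 lower (7 and 5 without replicate 2). KRT7 was at 588, 493 and 374 (2.09 ± 0.19), below the 2215 of DU145, and with shared probe sets left out its difference was 0.0044 (adjusted p = 0.979). NEFL, the light neurofilament, was dim at 7.5, 10.5 and 11.5 (-2.95 ± 0.17), but as dim in U87 (5.1 to 12.3) and MDA435 (5 to 13).

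HOX genes, which record the body position of a cell's origin, were lower in 12 of 25 cases and higher in 2, median -0.57 (16 and 2 without replicate 2, and 11 and 2 against DU145 and MDA435). HOXB2 was at 18.2, 17.9 and 67.0 against 73.2, 613 and 942 (-3.06 ± 0.23), and HOXD8 at 28.9, 50.9 and 48.5 against 94.4, 421 and 532 (-2.52 ± 0.13). Both lay below all 15 arrays. HOXC10 (19, 34.7 and 30.2; -1.71 ± 0.14) was lower than the mean but overlapped with U87 (13.1 to 30.2). HOXD10 (-2.03 ± 0.11) was not called against DU145 and MDA435 (-0.32, adjusted p = 0.109). HOXD1 (166, 176 and 159; 1.39 ± 0.16) and HOXD4 (0.98 ± 0.14) were the 2 higher.

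Cancer-testis antigens, germline genes switched on in tumours, were lower in 9 of 14 cases and higher in 1 (64.3% and 7.14%, beside 19.9% and 23.2% of all genes), with and without replicate 2, but lower in 7 and higher in 4 against DU145 and MDA435 alone. MAGEA1 was at 9.5, 16.9 and 9.8 against a median of 400 (-3.59 ± 0.14), with DU145 alike (9.5). MAGEA12 (-2.60 ± 0.13), CTAG2 (-2.69 ± 0.15) and PRAME (-2.26 ± 0.15) were also lower than the mean, being bright in HT1080 and MDA435. Other lines were as dim. CTAG2 was at 0.9, 1.8 and 1.7, with U87, U251 and DU145 at 2 or below. PRAME was at 13.8, 10.7 and 10.8, with U87 and U251 at 11.6 or below. MAGEA12, at 95.1, 57.4 and 104.6, was above DU145 (11.9 to 19.5). MAGEA1, MAGEA12 and CTAG2 have probe sets shared within their families.

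Marker lists of other lineages differed in their counts. Of 18 glial and neural genes, 15 were lower and 1 higher (median -1.24), of 13 fibroblast genes 9 and 0 (0 higher also at an unadjusted p under 0.05, limma), and of 15 melanocytic genes 7 and 2. Without replicate 2 these counts were 14 and 2, 8 and 0, and 7 and 3, and against DU145 and MDA435 alone 7 and 0, 4 and 2, and 10 and 0. FABP7 (24.4, 44.5 and 18.7), PDGFRA (2.8, 11.3 and 4.2) and PTPRZ1 (14.5, 8.2 and 8.9) were bright in U251, with means of 4003, 3025 and 1227. SLC1A3, a glial glutamate transporter, was at 28.3, 101 and 30.7, and S100B, MIA and PAX3 were at 15.1 or below. GPM6B, a glial membrane protein, was at 33.0, 10.1 and 49.0. THY1 and FAP stood at 28.1 or below, and ACTA2, smooth muscle actin, at 103, 130 and 75.8, near DU145 and MDA435 (0.16 against them, adjusted p = 0.614). Each of these genes was bright in 1 or a few of the other lines, and PDGFRA (-0.02, adjusted p = 0.941) and SLC1A3 (-0.48, adjusted p = 0.568) were not called against DU145 and MDA435. The prostate list had 1 of 7 higher and 0 lower, also at an unadjusted p under 0.05 (limma), namely SLC45A3 (92.1, 120 and 96.8; 0.63 ± 0.12).

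Of 6 blood cell genes tested among 10 on the array, 3 were higher and 1 lower (4 and 1 without replicate 2). LAPTM5, a lysosomal protein of blood cells, was at 1191, 647 and 944 and at most 132 elsewhere (3.57 ± 0.17, adjusted p = 1.05e-10), and CD14, a monocyte receptor, at 71.1, 41.8 and 63.3 and at most 38.9 elsewhere (1.73 ± 0.15). LYZ was at 85.7, 2.5 and 33.7 (1.19 ± 0.30), and not called without replicate 1 (0.60, adjusted p = 0.0615). At most 14.4 elsewhere, LYZ passed the filter on low values only through MDA231. It could thus be tested only because it was high there, which raises the share of blood genes called higher. HBB was lower (-0.42 ± 0.15), a call that ended without shared probe sets (-0.02, adjusted p = 0.941). The summed intensity of the 10 blood genes on the array was 1549, 881 and 1289 in MDA231 and 203 to 368 in the other cell body arrays. Most of the MDA231 sum was LAPTM5 alone (1191, 647 and 944), so it describes this gene more than the list. The part of blood cells in these values was not tested.

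The line contrast was repeated in the pseudopod arrays, which came from the other side of the same kind of filter. There 2623 genes were higher (17.6%) and 2547 lower (17%). Of the genes higher in cell bodies, 2290 were also called higher in pseudopods (66.1% of the cell body list and 87.3% of the pseudopod list), and of those lower 1994 (67.1% and 78.3%), with 1 gene called in opposite directions. The fractions of a line may come from 1 culture and are no independent replicates. MMP1 differed by 5.35 in pseudopods and 4.54 in cell bodies, ADGRF5 by 4.98 and 5.70, and CD109 by -4.42 and -5.68.

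**Figure D5:**
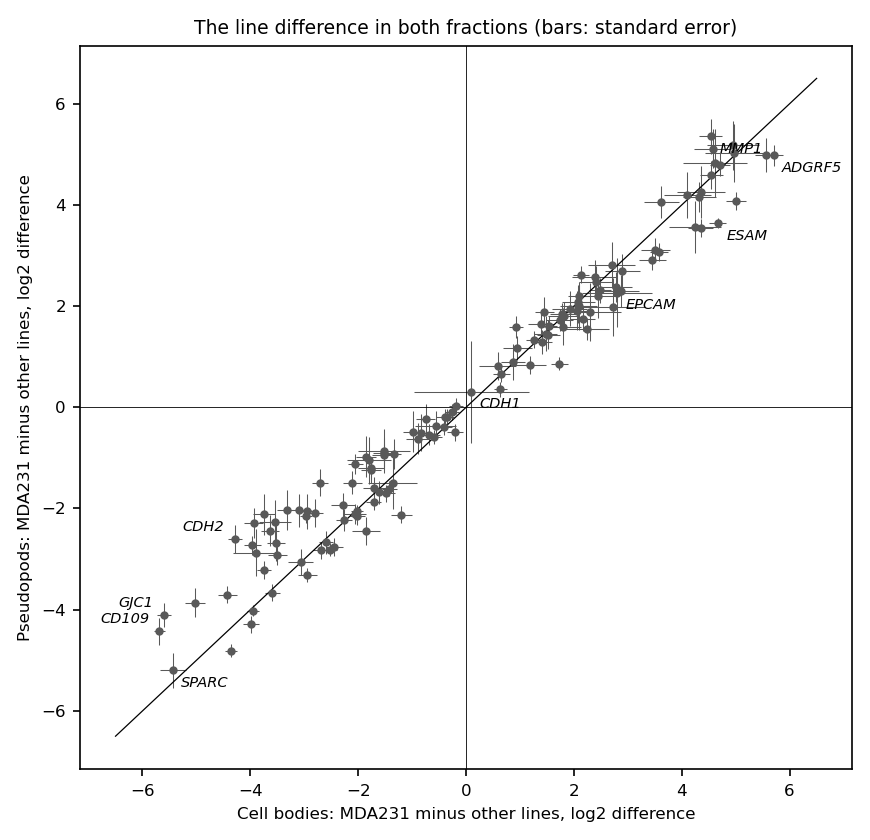
Difference between MDA231 and the mean of the other lines in cell bodies (horizontal axis) and pseudopods (vertical axis) for the named genes, on the log2(intensity + 16) scale, with standard errors as bars and a line of equality. The genes lie along the line, with CDH1 near 0 and wide bars in both fractions, and CDH2, GJC1 and CD109 farther from 0 in cell bodies than in pseudopods.

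A test of the difference between both contrasts called 5 genes (0.0335%; limma on 36 arrays). ESAM was 4.67 higher in cell bodies and 3.64 in pseudopods, a difference of 1.03 (adjusted p = 0.026). The other lines had ESAM at 6.2 or below in both fractions. That difference was thus a change within MDA231, from 682, 293 and 458 in cell bodies to 238, 218 and 203 in pseudopods. CDH2 was at -4.29 and -2.60 (adjusted p = 0.028) and GJC1 at -5.60 and -4.10 (adjusted p = 0.028). For CDH2 and GJC1 the other lines' mean intensity was 811 and 960 in cell bodies and 241 and 443 in pseudopods, while MDA231 stayed below 20 in both. The other 2, NDUFAF1, a respiratory complex I assembly factor (-0.04 and -1.03), and PIGC, an enzyme of GPI anchor synthesis (-0.21 and 0.54), were named after their values were seen.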

How the data were processed

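The deposited intensity values of 36 arrays are linear, from 0 to 9883.2 over 54593 probe sets, with a mean (2% trimmed at each end) between 149.18 and 149.59 in each array. RMA and Partek appear in the submitters' processing notes, without versions or roles, and which program made the linear values is not given here. No intensity below which a gene is absent is known. Of the probe sets, 41074 carry 1 gene symbol, 1798 several and 11721 none; symbols were updated through RefSeq (GRCh38.p14; 41020 matched). Each of 19775 genes was represented by its brightest probe set (by mean of the 36 arrays), and 14942 with a cell body group mean of at least 25.7 were tested. Genes dim in every other line, such as GPAT2, ESAM and LYZ, were therefore tested only through their MDA231 mean. limma 3.58.1 in R 4.3.3 was fitted to log2(intensity + 16) of 18 arrays with 6 group means (12 residual degrees of freedom), contrasting MDA231 with the mean of 5 lines. The design foresaw linear or log2 values, and the log2 step was added for the linear ones.

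In a simulation of 14942 genes with 200 changed, 39% of 1.5-fold and 84% of 2-fold differences were recovered, with 6 false calls. It drew independent normal noise with 1 spread per gene for all lines and held no array that stood apart as replicate 2 did. In the data 43.1% of genes were called, so these shares do not carry over to the comparison made here. Named genes were the 14 largest differences each way without overlap of arrays, up to 4 called members per list, 15 genes by name and the 20 genes farthest out in replicate 2; other list members were named after their values were seen. The comparison, gene lists and rules were chosen with earlier results of these data known. Alternatives were other pseudocounts, filters, normalizations and probe set rules, array weights, a replicate block, lines as units, fewer lines, and each array left out. The number of arrays limits precision. Genes on chromosome Y and XIST are not reported here. Figures used matplotlib 3.10.9 in Python 3.11.15.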

Additional observations from a re-analysis of the deposited data

Results flagged for a closer look

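In 3 named genes the line difference in cell bodies departed from that in pseudopods by a test of the difference itself (limma, 36 arrays). For ESAM the cell body difference exceeded the pseudopod difference by 1.03 (4.67 against 3.64, adjusted p = 0.026). The other lines had ESAM at 6.2 or below in both fractions, so this departure was a change within MDA231 alone. For GJC1 the departure was -1.50 (-5.60 against -4.10, adjusted p = 0.028), and for CDH2 -1.68 (-4.29 against -2.60, adjusted p = 0.028). MDA231 had GJC1 and CDH2 at 19 or below in both fractions. These departures lay in the other lines, whose mean intensity was lower in pseudopods. The direction of each line difference was the same in both fractions.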

How the results depend on the processing

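Of 127 named genes with a test, 121 were called, and 90 of them kept their side of the threshold under each alternative other than lines as units in which they had a value; 93 of the 127 had one without shared probe sets, 123 under the stricter filter and 125 where probe sets were averaged. With lines as units, 11 genes were higher and 2 lower in cell bodies and 5 and 0 in pseudopods (limma; 595 genes at an unadjusted p under 0.05 in cell bodies). Against DU145 and MDA435 alone, the counts of higher genes were 2188 in cell bodies and 1675 in pseudopods, and 23 named calls ended with their sign kept, and those of EPCAM and ACTA2 with it turned. Genes higher than each line numbered 261 with equal array medians and 859 with array weights, those lower than each line 688 with array weights, and those lower in pseudopods 3951, also with array weights. Leaving out 1 array gave 2811 to 3577 higher and 2226 to 3059 lower genes against the mean, and 310 to 572 and 200 to 407 against each line; the lowest counts came without MDA231 replicate 1 or 3 and the highest without MDA231 replicate 2 or, for genes higher than the mean, MDA435 replicate 3.

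Signs turned as follows. CDH1 went to -2.10 with array weights, -3.28 against DU145 and MDA435, -0.49 without U87, -0.41 without U251, -0.49 without HT1080, -0.24 without MDA435 replicate 1 and -1.37 without the 3 arrays MDA231 replicate 2 and MDA435 replicates 2 and 3 (chosen after seeing the data). Leaving out 1 array moved CDH1 from -2.04 (without MDA231 replicate 2) to 1.27 (without MDA231 replicate 3). CAV1 went to 0.15 with quantile normalization, 0.0030 with array weights and 0.19 against DU145 and MDA435, ACTB to 0.081 with quantile normalization, EPCAM to -0.50 and ACTA2 to 0.16 against DU145 and MDA435, IL6 to 0.52 there and 0.10 without U87, ADM to -0.16 without HT1080, and CXCL8 to -0.026 without MDA435. The cause was not tested. With the replicate number as a block, 3440 genes were higher and 2928 lower. Same-numbered arrays of MDA231 and each other line had correlations of their deviations from -0.35 to 0.36, above 0.1 in 2 of 15 pairs of arrays. Arrays of the other lines were not compared with each other in this way, so whether the numbers pair the arrays was not settled.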

Other observations

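Some genes near MTAP in RefSeq order, picked after their values were seen, had its array pattern and others did not. FOCAD, a focadhesin gene, was at 1.5, 252 and 7.6 in MDA231 cell body replicates 1, 2 and 3 and at 1.6, 1.3 and 254 in pseudopod replicates 1, 2 and 3. KLHL9, an adaptor of a ubiquitin ligase in mitosis, was at 5.1, 521 and 8.6 in cell bodies and 8.7, 5.4 and 487 in pseudopods. MTAP itself was at 3.3, 2.8 and 261 in pseudopods. The 3 genes were thus bright in the 2 arrays that were high in CDH1 and dim in the other 4. The nearest genes on both sides were dim. In cell bodies IFNE was at 11.4, 10.9 and 17.5 and CDKN2A at 42.6, 23.4 and 44.9. IFNE had means of 8.63 to 29.1 in the other lines. CDKN2A had means of 22.5 to 31.3 in U87, U251 and HT1080, 234 in MDA435 and 1354 in DU145. It did not share the rise of MTAP, at 23.4 in cell body replicate 2 and 25.3 in pseudopod replicate 3. HACD4 (10.9, 15 and 15.6), between FOCAD and KLHL9, was dim except in DU145 (434). IFNE and HACD4, this dim in most lines, cannot show whether they share the pattern. Nor can IFNA17, whose shared probe set was at 107.6, 87 and 95.4, and at 67.4 to 88.1 in the other lines. MLLT3 (135, 168 and 134), beside FOCAD, did not follow.

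Farther out, CNTLN, a centriole protein gene, was at 3.2, 61.9 and 2.6 in cell bodies. SH3GL2 (8.8, 186 and 2.4, and in pseudopods 3.8, 2.8 and 200) had the same pattern, and SNAPC3 (179, 409 and 145) a weaker one. RPS6, a ribosomal protein gene (3658, 4231 and 4039), RRAGA and, on the other side, CAAP1 (640, 795 and 734) and PLAA did not follow. Further genes of the stretch went the opposite way. TUSC1, between MTAP and CAAP1, was at 711, 236 and 723 in cell bodies and 751, 933 and 314 in pseudopods. PLIN2 (1642, 769 and 1244) and ADAMTSL1 (198, 43.7 and 138) were also lowest in cell body replicate 2, whereas PSIP1 (627, 931 and 528) was highest there. In the other lines FOCAD had means of 2.3 in U87 and 260 to 306 elsewhere, and KLHL9 10.7 in U87 and 545 to 1026 elsewhere; MTAP was dim in U87 and HT1080. Without replicate 2 the differences of FOCAD, KLHL9 and CNTLN were -3.10, -4.14 and -2.84 (limma, adjusted p = 1.05e-10, 1.12e-12 and 6.74e-09), and with it -1.86, -2.62 and -2.16. All 6 MDA435 arrays had FOCAD between 236 and 282 and KLHL9 between 755 and 963, whatever their CDH1.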
